A study of Homo sapiens with 7 samples.

Results

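The regions described here are RUNX2 binding sites that were called in PER-117, a T-cell acute lymphoblastic leukemia (T-ALL) line, without a call in the T-ALL line KARPAS-45, away from gene ends and outside acetylated chromatin of both lines. Starting from 21027 PER-117 RUNX2 peaks on chromosomes 1 to 22 and X, the selection kept the 7644 with no overlapping KARPAS-45 RUNX2 peak (36.4%). Of these, 6379 had a midpoint over 1 kb from every protein-coding gene end, and 1615 of the 6379 (25.3%) had it outside every H3K27ac region of both lines. The 1615 peaks, called members below, made up 7.68% of the PER-117 RUNX2 list. The same rule applied to peaks shared by the lines left 1857 of 8508 distal shared PER-117 peaks (21.8%). Applied to the other line, it left 10794 KARPAS-45-only peaks from the longer list of 42911 KARPAS-45 RUNX2 peaks. These 2 sets serve as comparisons, with the 2948 distal PER-117-only peaks that lay in H3K27ac of PER-117 alone. All members were chosen by peak calls, so the absence of a partner peak and of H3K27ac at their midpoint is a condition and not a result.

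RUNX2 and the histone mark H3K27ac were mapped by chromatin immunoprecipitation and sequencing in cultures of both lines, with 1 library per line and antibody and 3 input libraries that were not analysed here. The RUNX2 antibody was D1H7 and the H3K27ac antibody ab4729 in each line, and KARPAS-45 was grown with more fetal bovine serum than PER-117. The names inside the deposited files number the RUNX2 and H3K27ac calls of PER-117 differently, so it is not known whether both came from the same culture. There were no replicates, so no test between lines was possible and every contrast is one between libraries. H3K27ac covered 76.2 Mb in 53263 PER-117 regions and 167 Mb in 63265 KARPAS-45 regions, and the number of reads behind each list is unknown. The lists also end at different strengths, with a lowest −log10 q of 1.01 in PER-117 and 0.431 in KARPAS-45. A peak missing from the KARPAS-45 list was therefore not called there at an unknown depth. As a check of the labels, H3K27ac lay within 1 kb of an end of 6 of 6 T-lineage marker genes (LCK, CD2, CD3E, CD3D, CD3G and CD7) in each line, of 3 of 5 B-lineage markers in PER-117, against 2 for KARPAS-45, and of 1 of 5 myeloid markers in PER-117, against 0 for KARPAS-45. Over the longer list of 28 T-lineage genes used below, PER-117 had H3K27ac at an end of 19 genes, against 28 for KARPAS-45. Percentages carry Wilson 95% intervals in brackets, which cover counting error only and treat neighbouring peaks as independent.

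RUNX proteins bind DNA through the Runt domain, as a pair with the partner subunit CBFB, and the letters TGTGGT form the core of the site they favour. They recruit coactivators such as the acetyltransferase p300 at some sites and corepressors of the TLE and histone deacetylase families at others. H3K27ac marks active enhancers and promoters, and transcription factors also occupy sites without the mark. RUNX1 and RUNX3 share the same DNA core and direct T-cell development, while RUNX2 is best known from bone and is expressed in early thymocytes.

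Sequence under a member could be read where a peak reached into a promoter window of the RefSeq table, which holds the 250 bases before and 50 bases after an annotated transcript start (GRCh38.p14). Of the 1615 members, 24 overlapped such a window, 11 of long noncoding RNAs and 13 of protein-coding genes, the coding ones at starts that lie inside the gene span, away from its ends. In 14 windows the summit itself lay inside. The core TGTGGT, searched on both strands (TGTGGT and ACCACA) in the 250 upstream bases, was present in 7 of the 24 windows (29.2%, 14.9 to 49.2) and in 6 of the 14 with the summit inside (42.9%, 21.4 to 67.4). It was present in 10.98% of all 34961 windows and in 15.4% of the 3459 windows that hold a summit of any PER-117 RUNX2 peak. Windows with the summit of a distal shared peak without H3K27ac had it in 7 of 16, and those with the summit of a distal PER-117-only peak acetylated in PER-117 alone in 12 of 45 (26.7%, 16.0 to 41.0). For distal KARPAS-45-only peaks without H3K27ac it was 26 of 65 (40%, 28.97 to 52.1). For distal PER-117-only peaks acetylated in both lines it was 12 of 61 (19.7%, 11.6 to 31.3). The intervals of the small sets overlap, and a match of 6 letters is a description and not a bound site. Shown here are the upstream bases that lie under the peak for 6 of these 14 windows, chosen after their values were seen: the 4 strongest of the 5 with the core under the peak, and 2 without it, in lower case with the core on either strand in capitals.
LOC105376627, chr11:35082583-35082798, plus strand: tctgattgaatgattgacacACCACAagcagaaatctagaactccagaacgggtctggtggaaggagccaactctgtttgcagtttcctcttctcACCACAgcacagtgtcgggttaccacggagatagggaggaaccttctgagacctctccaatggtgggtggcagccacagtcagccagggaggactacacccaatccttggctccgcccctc
LOC124904500, chr1:208126272-208126411, plus strand: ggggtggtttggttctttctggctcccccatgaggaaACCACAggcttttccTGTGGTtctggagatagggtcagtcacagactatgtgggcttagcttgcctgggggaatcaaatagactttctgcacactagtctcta
ATP6V1B1-AS1, chr2:70948612-70948835, minus strand: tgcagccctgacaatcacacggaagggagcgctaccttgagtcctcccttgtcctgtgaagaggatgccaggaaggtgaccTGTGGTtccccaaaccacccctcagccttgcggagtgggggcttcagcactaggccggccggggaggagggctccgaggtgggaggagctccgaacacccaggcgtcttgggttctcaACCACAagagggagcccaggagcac
AIG1, chr6:143164547-143164781, plus strand: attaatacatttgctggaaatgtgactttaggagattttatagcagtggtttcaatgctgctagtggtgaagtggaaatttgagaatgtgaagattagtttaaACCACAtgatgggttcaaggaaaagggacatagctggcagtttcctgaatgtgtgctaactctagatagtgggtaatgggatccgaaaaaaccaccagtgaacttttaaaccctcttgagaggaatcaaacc
FOXP2, chr7:114414565-114414814, plus strand: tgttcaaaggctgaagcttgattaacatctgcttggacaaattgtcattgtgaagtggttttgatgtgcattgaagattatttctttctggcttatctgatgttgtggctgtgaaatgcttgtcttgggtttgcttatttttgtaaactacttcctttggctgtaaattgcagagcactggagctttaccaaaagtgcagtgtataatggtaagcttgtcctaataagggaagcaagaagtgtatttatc
NTM, chr11:131585396-131585561, plus strand: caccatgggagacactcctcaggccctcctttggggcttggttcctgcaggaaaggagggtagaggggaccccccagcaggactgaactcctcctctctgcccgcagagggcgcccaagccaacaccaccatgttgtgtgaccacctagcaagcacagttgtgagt
LOC105376627, a long noncoding RNA gene on chromosome 11, carried the strongest of these peaks, with a fold enrichment of 11.9, and its stretch holds the core 2 times. The peaks at LOC124904500 and at ATP6V1B1-AS1, both long noncoding RNA genes, had fold enrichments of 5.56 and 5.37 and likewise hold the core 2 times each. The peak at the internal start of AIG1, which encodes a hydrolase of fatty acid esters, had 5.63 and holds it 1 time. The peaks at the internal starts of FOXP2, a forkhead factor of brain development, and NTM, a neuronal adhesion protein, had 5.01 and 6.07 and show no such letters in the bases printed. Between these sites the surrounding acetylation differed: the FOXP2 site lay 0.109 kb from H3K27ac of PER-117 and 366 kb from that of KARPAS-45, the NTM site 23.2 and 669 kb, and the AIG1 site 217 and 10.6 kb.

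Members were weaker calls than shared peaks or PER-117-only peaks acetylated in PER-117 alone, and not weaker than other distal PER-117-only peaks. Fold enrichment, the authors' value for a single peak over the caller's background, had a median of 4.91 (interquartile range 3.94 to 6.55) over the members, against 5.73 (4.31 to 8.44) for distal PER-117-only peaks acetylated in PER-117 alone and 6.25 (4.72 to 9.69) for distal shared peaks without H3K27ac. It was 4.56 for the 1614 distal PER-117-only peaks acetylated in both lines and 4.24 for the 202 acetylated in KARPAS-45 alone. The median width was 251 bp for the members, 305 bp for the peaks acetylated in PER-117 alone and 293 bp for the shared peaks. A −log10 q of 10 or more was reached by 30.3% of the members (28.1 to 32.6), 47.7% of the PER-117-only peaks acetylated in PER-117 alone and 55.1% of the shared ones, and by 28.4% and 16.3% of those acetylated in both lines and in KARPAS-45 alone. Ranked by fold enrichment, members made up 11.5% (10.2 to 12.9) of the weakest 10% of the PER-117 list and 3.19% (2.52 to 4.03) of the strongest 10%. Only 9 members (0.557%) had a fold enrichment under 2, and 6 of these lay on chromosome 16. More than 1 summit was called in 14 members (0.867%), against 160 of those acetylated in PER-117 alone (5.43%). These values belong to the same calls that chose the members and are given as a description.

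**Figure D1:**
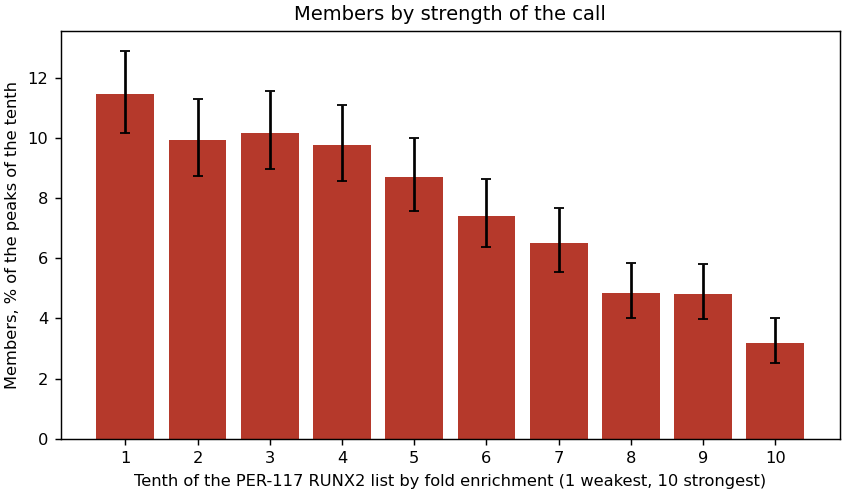
Share of members (percent, bars) in each of 10 equal groups of the PER-117 RUNX2 list, ordered by fold enrichment from the weakest (1) to the strongest (10), with Wilson 95% intervals as error bars. The share lies at 11.5% in the weakest group and 3.19% in the strongest.

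Strong peaks were nonetheless present. The strongest member ranked 148 in the PER-117 list, with a fold enrichment of 29.3, and lay inside WDR37 (chromosome 10, 1114257 to 1114929, hg38), 26.1 kb from PER-117 and 2.76 kb from KARPAS-45 H3K27ac. The next, with 28.8, lay between genes 19971 bp from an end of PIGP, an enzyme subunit of GPI-anchor synthesis, and 0.134 kb from PER-117 H3K27ac (chromosome 21, 37045208 to 37045579). A peak of 26.6 lay 87137 bp from IRX3, a homeobox factor, inside the noncoding gene LOC105371272, and one of 25.4 lay 13910 bp from XPA, a DNA repair factor, inside the noncoding gene PTCSC2. Peaks of 23.7 and 22.2 stood 123473 bp from MCTP2 and 367765 bp from STPG2. Their surroundings differed in acetylation: the peak near MCTP2 lay 0.046 kb from PER-117 H3K27ac and 620 kb from that of KARPAS-45, while the peak near STPG2 lay 44.3 and 1069 kb away. Inside genes, BTRC, the substrate receptor of a ubiquitin ligase, held a peak of 21.9, NALF1, a subunit of a sodium leak channel, one of 20.98, DOCK9, an activator of the GTPase CDC42, one of 20.4, and the scaffold protein gene DLG5 one of 19.7. The peak in NALF1 was far from acetylation in both lines, at 754 kb from PER-117 and 532 kb from KARPAS-45 H3K27ac. The remaining peaks of this group had their nearest gene end at MLXIP, a glucose-responsive transcription factor (21.2), EMCN, an endothelial sialomucin (21.04), GYPB, a red cell glycophorin (20.2), and RGR, a retinal opsin (19.4). Of the 14 strongest members outside chromosome 8, 5 lay inside a protein-coding gene and 7 over 10 kb from H3K27ac of both lines.

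Although outside acetylated regions by rule, members lay near PER-117 acetylation. The median distance from a member to the nearest H3K27ac region was 9.08 kb in PER-117 (interquartile range 0.596 to 39.2) and 27.8 kb in KARPAS-45 (5.86 to 128), while the KARPAS-45 list covered more of the genome. With H3K27ac regions widened by 500 bp and distances taken to the widened edge, the median to PER-117 was 18.1 kb. Within 1 kb of PER-117 H3K27ac lay 448 members (27.7%, 25.6 to 29.97), and within 1 kb of KARPAS-45 H3K27ac 143 (8.85%, 7.56 to 10.3). In 1030 members (63.8%, 61.4 to 66.1) the nearer of both lines was PER-117. The comparison sets showed other patterns. Distal shared peaks without H3K27ac had medians of 15.5 kb to PER-117 and 14.99 kb to KARPAS-45 regions and were closer to PER-117 in 45.7% (43.5 to 47.99). KARPAS-45-only peaks without H3K27ac had medians of 34.02 and 13.9 kb and were closer to PER-117 in 25.8% (24.9 to 26.6). In either line the unshared sites lay nearer to the acetylation of the line that had the RUNX2 peak, and the medians of the shared sites were close to each other.

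**Figure D2:**
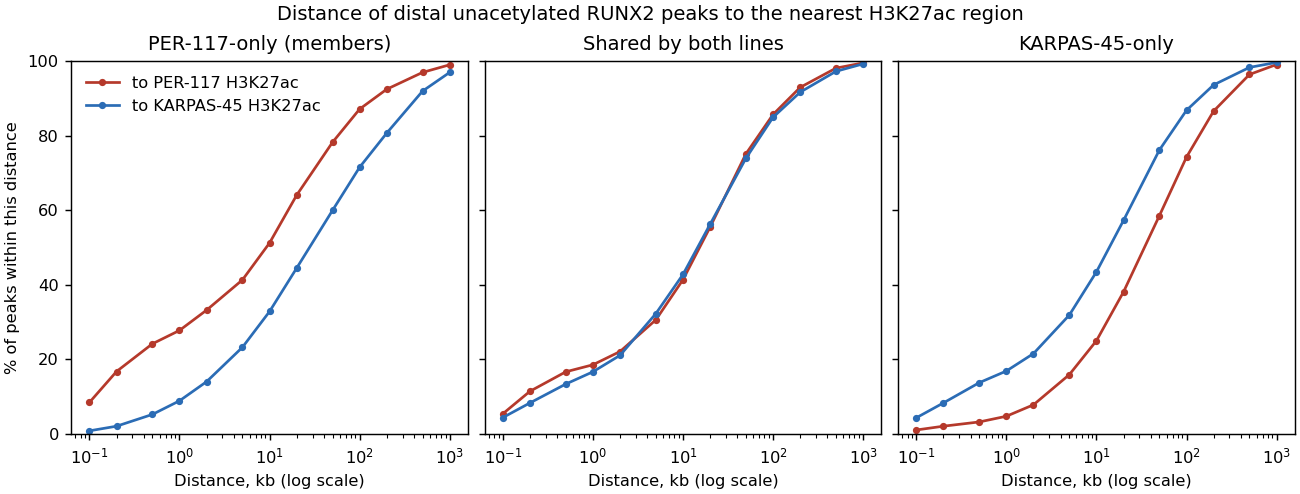
Cumulative percent of peaks within a given distance (kb, log scale) of the nearest H3K27ac region of PER-117 (red) and KARPAS-45 (blue), for the members, the distal shared peaks and the distal KARPAS-45-only peaks, all outside H3K27ac. For the members the PER-117 curve is above (27.7% against 8.85% at 1 kb), for shared peaks the curves nearly coincide, and for KARPAS-45-only peaks the order is turned.

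Distances were also set against the space in which a member could lie. A midpoint over 1 kb from all protein-coding gene ends and outside H3K27ac of both lines could fall in 2782 Mb, including unsequenced or unmappable stretches, which were not taken out. Over this space there were 0.581 members per Mb. Within 1 kb of PER-117 H3K27ac, which is 1.91% of the space, there were 8.45 per Mb, at 1 to 10 kb 1.16, at 10 to 100 kb 0.630 and beyond 100 kb 0.140. Measured from KARPAS-45 H3K27ac, the values were 1.42, 0.952, 0.741 and 0.321 per Mb. Shared peaks had 6.49 per Mb within 1 kb of PER-117 and 3.06 within 1 kb of KARPAS-45 regions, and KARPAS-45-only peaks 9.60 and 18.02. By density the shared peaks were thus higher beside PER-117 regions, although more of them were closer to KARPAS-45 H3K27ac (54.1%). On the flanks of regions the call is a matter of borders: 190 members (11.8%) touched a PER-117 H3K27ac region with part of their width, and 136 midpoints lay within 100 bp outside such a region, while 190 distal PER-117-only peaks with a midpoint within 100 bp inside were left out by the rule. With no base of the peak allowed inside H3K27ac, 1403 members remained, of which 59.9% were closer to PER-117 than to KARPAS-45 H3K27ac. PER-117 H3K27ac stood on both sides within 5 kb at 184 members (11.4%, 9.93 to 13.04), KARPAS-45 H3K27ac at 93 (5.76%, 4.72 to 7.003).

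Distance to acetylation went with little difference in strength. Members up to 1 kb from PER-117 H3K27ac had a median fold enrichment of 5.06, those at 1 to 10 kb 4.68, at 10 to 100 kb 4.78 and beyond 100 kb 5.09. Location did differ. Inside protein-coding genes lay 54.9% of the closest group, 60.4% at 1 to 10 kb, 49.7% at 10 to 100 kb and 34.6% beyond. In all, 445 members (27.6%, 25.4 to 29.8) were within 10 kb of PER-117 H3K27ac alone, 148 (9.16%, 7.85 to 10.7) of KARPAS-45 H3K27ac alone, 382 (23.7%) of both and 640 (39.6%, 37.3 to 42.04) of neither. Over 100 kb from acetylation of both lines stood 149 members (9.23%, 7.91 to 10.7), a share close to the 8.35% (7.17 to 9.69) of shared and 10.1% (9.57 to 10.7) of KARPAS-45-only peaks. Outside chromosome 8, the farthest were a pair on chromosome 14 (16093255 to 16093535 and 16096141 to 16096450), with fold enrichments of 5.73 and 10.45, 4212 and 4209 kb from PER-117 and 3881 and 3878 kb from KARPAS-45 H3K27ac. The nearest coding gene end to both was that of the olfactory receptor OR11H12. They were followed by peaks nearest to FAM133A on chromosome X, inside TPTE on chromosome 21 and nearest to IZUMO3 on chromosome 9. Whether reads can be placed uniquely at these far sites was not analysed here. The closest members outside chromosome 8 lay within 0.005 kb of a region. One was beside KARPAS-45 H3K27ac, with its nearest coding gene end, that of TH, at 23280 bp. The others were beside PER-117 H3K27ac, inside TCERG1L and SIN3B, a corepressor scaffold, and outside genes at 10877 bp from the interferon gene IFNA2 and 858793 bp from DIAPH3.

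Some members also lay near acetylated RUNX2 sites of their own line. A distal PER-117-only peak acetylated in PER-117 alone was found within 100 kb of 543 members (33.6%, 31.4 to 35.96), of 26.3% of the shared peaks without H3K27ac (24.3 to 28.3) and of 15.7% of the KARPAS-45-only peaks without H3K27ac (15.04 to 16.4). For the counterpart, a distal KARPAS-45-only peak acetylated in KARPAS-45 alone, the shares were 30.4% of the members (28.2 to 32.7), 42.2% of the shared and 48.8% of the KARPAS-45-only peaks. Among PER-117-only peaks acetylated in both lines, 30.7% (28.5 to 33.03) had the PER-117 target within 100 kb, with an interval overlapping that of the members. The KARPAS-45 target was within 100 kb of 67.7% (65.3 to 69.9) of them. The KARPAS-45 set of such targets held 9021 peaks and the PER-117 set 2948, so shares are compared only for the same target. The nearest KARPAS-45 RUNX2 peak was a median of 23.97 kb from a member, and 68 members (4.21%) had one within 1 kb from edge to edge. The shortest gap was 3 bp.

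In their shares inside and outside genes, members were much like the comparison sets, while they lay farther from gene ends than shared peaks. Of the members 835 (51.7%, 49.3 to 54.1) lay inside a protein-coding gene, 218 (13.5%) only inside another RefSeq gene and 562 (34.8%, 32.5 to 37.2) outside all genes. Shared unacetylated peaks stood at 51.5%, 13.1% and 35.4%, KARPAS-45-only ones at 50.3%, 12.9% and 36.9%, and PER-117-only peaks acetylated in PER-117 alone at 51.6%, 15.1% and 33.3%. PER-117-only peaks acetylated in both lines lay inside protein-coding genes more often, at 68.2% (65.9 to 70.4). In eligible space, there were 0.763 members per Mb inside protein-coding genes, 0.560 inside other genes only and 0.433 outside genes. The distance to the nearest coding gene end had a median of 33.96 kb for members, 32.4 kb for PER-117-only peaks acetylated in PER-117 alone, 23.1 kb for shared peaks and 31.9 kb for KARPAS-45-only peaks. Over 100 kb from a gene end were 25.9% of the members (23.9 to 28.1), 25.1% of the peaks acetylated in PER-117 alone (23.6 to 26.7), 15.8% of the shared (14.2 to 17.6) and 20.9% of the KARPAS-45-only peaks (20.2 to 21.7). Over 500 kb were 73 members (4.52%, 3.61 to 5.65), 124 of the peaks acetylated in PER-117 alone (4.21%, 3.54 to 4.99) and 27 shared peaks (1.45%, 1.001 to 2.11). Among the KARPAS-45-only peaks there were 276 (2.56%, 2.28 to 2.87). At the 1 kb limit, the members nearest to a gene end stood 1015 bp from SDHAF4 (5.06) and 1054 bp from TMTC2 (6.19), and the peaks just left out 993 bp from CCDC150 (5.07) and 975 bp from CPVL (7.49), with the fold enrichment in brackets. Precursors of 2 microRNAs, MIR4270 and MIR609, were overlapped by a member.

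By chromosome, the density of members per eligible Mb was highest on chromosome 7, with 128 members or 0.874 per Mb, followed by chromosome 19 with 0.784, chromosome 20 with 0.765, chromosome 1 with 0.753 and chromosome 11 with 0.749. It was lowest on chromosome X, with 27 members or 0.181 per Mb, and on chromosome 18, with 16 members or 0.210 per Mb. On chromosome X the other sets were thin too, at 0.208 per Mb for shared peaks against 0.668 over all chromosomes, and 2.55 against 3.88 for KARPAS-45-only peaks. On chromosome 18 shared peaks stood at 0.434 and KARPAS-45-only peaks at 3.41 per Mb. Relative to unacetylated KARPAS-45-only peaks there were 0.255 members per peak on chromosome 7 and 0.220 on chromosome 11, against 0.150 over all chromosomes, and 0.0618 on chromosome 18, 0.0709 on chromosome X and 0.0869 on chromosome 6. As a share of all PER-117 RUNX2 peaks, members were 11.5% on chromosome 4 (9.44 to 13.8), 11.3% on chromosome 13 (9.01 to 14.1), 11.001% on chromosome 8 (8.90 to 13.5) and 10.4% on chromosome 7 (8.86 to 12.3). They were 2.94% on the gene-rich chromosome 19 (2.13 to 4.04) and 3.86% on chromosome 17 (2.91 to 5.11). The number of copies of each chromosome in either line was not analysed here, and its part in these densities was not tested.

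**Figure D3:**
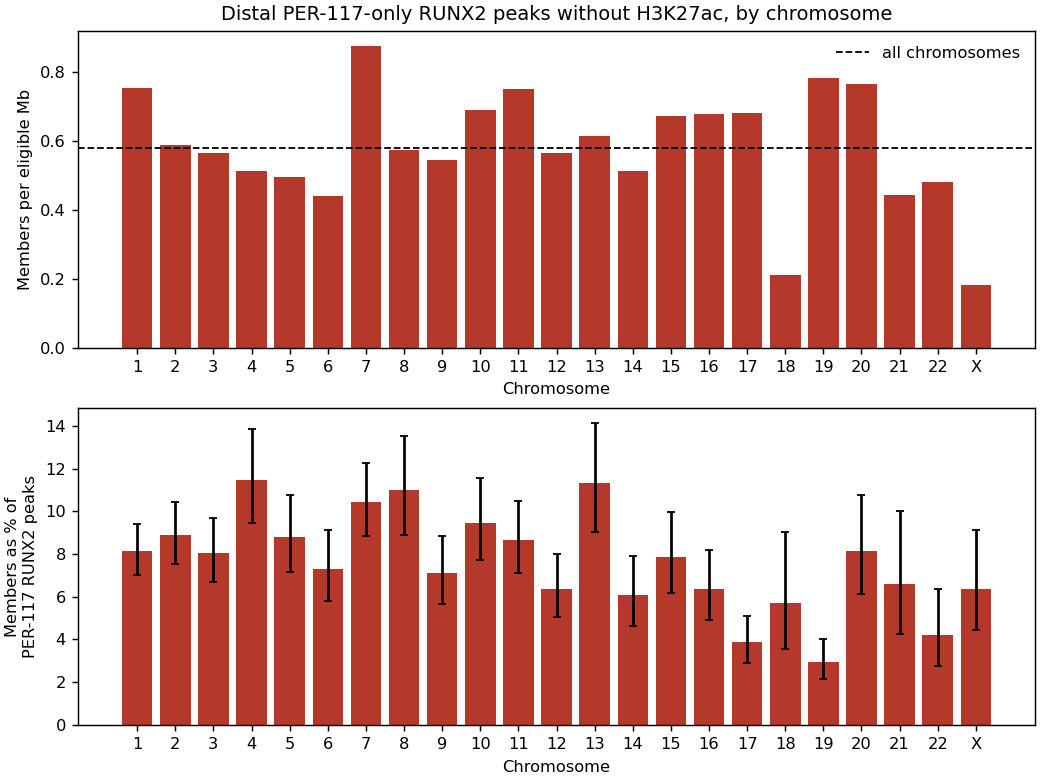
Members per Mb of eligible space by chromosome (upper bars, with the value over all chromosomes, 0.581, as a dashed line) and members as percent of all PER-117 RUNX2 peaks of the chromosome (lower bars, Wilson 95% intervals as error bars). Chromosome 7 is highest by density and chromosomes 18 and X are lowest, while chromosome 19, dense per Mb, has the lowest percent.

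Most members stood alone. Another member lay within 100 kb of 383 (23.7%, 21.7 to 25.9), compared with 25.5% (23.6 to 27.6) among the 1857 shared unacetylated peaks, a set of similar size, and the intervals overlap. Within 10 kb the order was the opposite, 7.99% (6.76 to 9.41) of the members and 5.17% (4.25 to 6.27) of the shared peaks. Higher shares were seen in both of the larger acetylated PER-117-only sets: of the 1614 PER-117-only peaks acetylated in both lines 51.2% (48.8 to 53.7) had another of their set within 100 kb and 21.9% within 10 kb, and of the 2948 acetylated in PER-117 alone 59.8% (58.1 to 61.6) and 28.9%. Chains of members within 100 kb formed 170 clusters of 2 or more, of which 142 held 2, 17 held 3 and 11 held 4 to 6. In 106 of the 170 (62.4%) no KARPAS-45 RUNX2 peak lay between the outer members. The clusters had a median span of 34.75 kb, and no comparison set was counted in this way. Members were chosen without an overlapping KARPAS-45 RUNX2 peak, so this count depends in part on the rule. Chromosome 18 had no such neighbours and chromosome 16 had 19 among its 54 members.

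The cluster with most members lay on chromosome 7 (115032943 to 115230009), 13.2 to 209.96 kb from an end of MDFIC, an inhibitor of myogenic and other transcription factors. Its 6 members had fold enrichments of 3.82, 5.24, 8.51, 5.20, 3.34 and 6.34 along the chromosome, and stood 0.385 to 19.4 kb from PER-117 H3K27ac and 984 to 1181 kb from KARPAS-45 H3K27ac. The span of 197 kb held 8 RUNX2 peaks and 9 H3K27ac regions of PER-117, and 0 and 0 of KARPAS-45. A cluster of 5 members inside PTPRD on chromosome 9 (8388131 to 8616653) showed the same makeup, with 8 RUNX2 peaks and 8 H3K27ac regions of PER-117 against 1 and 0 of KARPAS-45. Its members had fold enrichments between 3.01 and 6.62. A cluster of 4 at PLB1 on chromosome 2 (28465467 to 28548122) held 5 and 6 calls of PER-117 and 0 and 0 of KARPAS-45. Outside chromosome 8 there were 10 clusters of 4 or more members, of which 8 held more H3K27ac regions of PER-117 than of KARPAS-45, 1 the same number and 1 fewer. No spans of matched length were counted beside these clusters. Of those with 4 members, PLB1 had the shortest span. The next by span, near SRBD1 and at GADL1, had 4 and 3 PER-117 H3K27ac regions, against 1 and 0 of KARPAS-45. The cluster with the same number in both lines held 8 H3K27ac regions of PER-117 and 8 of KARPAS-45, and 5 RUNX2 peaks of PER-117 and 4 of KARPAS-45. In the other cluster of 5, on chromosome 16 (46387747 to 46401653), all members had fold enrichments of 1.38 to 1.94, the lowest range of any cluster named here. Whether reads can be placed uniquely there was not analysed here. That cluster had 9 RUNX2 peaks of PER-117, of which 5 were unshared, and 4 of KARPAS-45. It held 0 H3K27ac regions of PER-117 and 3 of KARPAS-45, so among these 10 it was alone in holding fewer regions of PER-117.

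**Figure D4:**
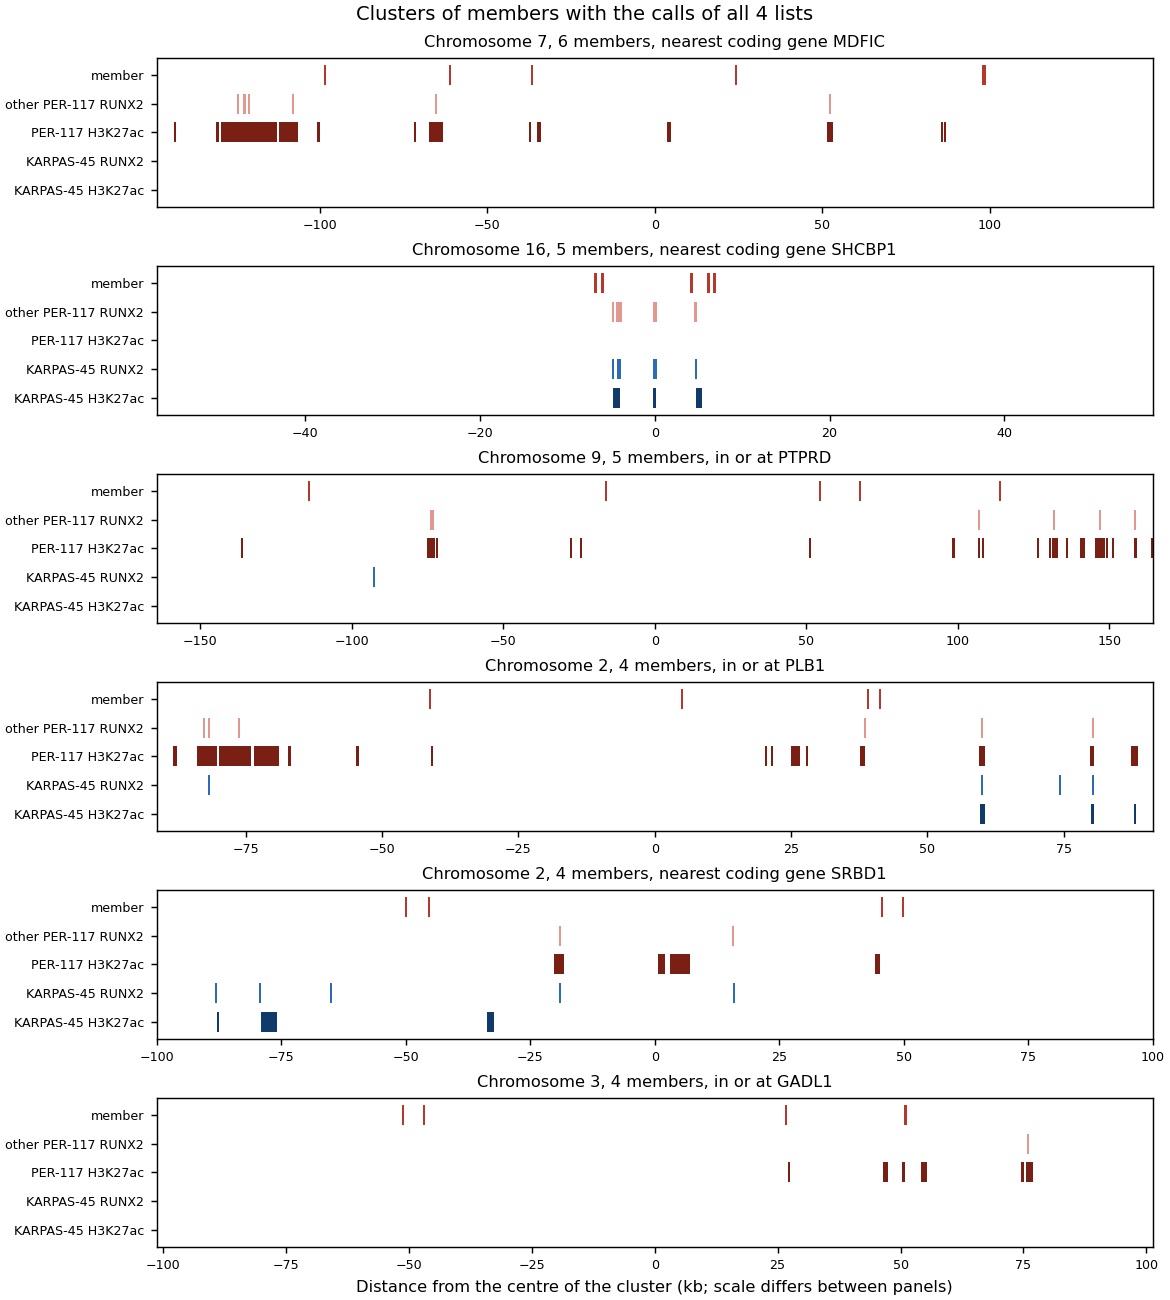
Calls of the 4 lists around 6 of the 10 clusters of 4 or more members outside chromosome 8 (those with most members, then the shortest spans), placed by distance from the centre of the cluster (kb), with narrow calls drawn at a minimum width. At the clusters near MDFIC and in PTPRD, PER-117 H3K27ac surrounds the members and KARPAS-45 H3K27ac is missing, whereas at the chromosome 16 cluster H3K27ac comes from KARPAS-45.

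Members lay inside 742 of 19974 protein-coding genes (3.71%), with 650 genes holding 1, 77 holding 2, 13 holding 3, and 1 each holding 4 and 6. Gene length went with this. A member lay in 26.1% of genes of 500 kb or more (21.6 to 31.2) and in 0.300% of those under 10 kb (0.188 to 0.481). Members per Mb of whole span were 0.641 in this shortest class and 0.775 at 10 to 100 kb. They were 0.671 at 100 to 500 kb and 0.454 in the longest class. Whole spans include the gene ends and acetylated sequence that the rule bars. The 742 genes had a median span of 121 kb, against 22.9 kb for all other protein-coding genes. Genes of 100 kb or more were therefore compared with each other. Of 425 such genes with a member, 88.9% (85.6 to 91.6) held H3K27ac somewhere in the span in PER-117 and 76.2% (71.96 to 80.04) in KARPAS-45. Of 2926 without a member, 64.7% (62.9 to 66.4) did in PER-117 and 70.3% (68.7 to 71.96) in KARPAS-45. A gene end was acetylated in PER-117 alone at 9.65% of the genes with a member (7.19 to 12.8) and 3.01% of those without (2.45 to 3.69), and in KARPAS-45 alone at 9.41% (6.99 to 12.6) and 11.7% (10.6 to 12.9). Genes with a member were longer, with a median of 247 kb against 168 kb, and the part of length in these shares was not tested.

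Of the 15 genes with 3 or more members, 14 lay outside chromosome 8. In 12 of these the span held more H3K27ac regions of PER-117 than of KARPAS-45, in 1 the same number (AUTS2) and in 1 fewer (MKLN1). The same count over all genes, or over other long genes, was not made. A number of regions is also not an amount of acetylated sequence. PTPRD, a receptor tyrosine phosphatase of neurons that is deleted in several cancers, held 6, with fold enrichments of 3.01 to 6.62, among 19 RUNX2 peaks and 59 H3K27ac regions of PER-117, against 3 and 3 of KARPAS-45. No end of the gene was acetylated in either line. KCNH1, a voltage-gated potassium channel, held 4 members with 4.69, 4.91, 11.5 and 3.51, among 8 RUNX2 peaks and 9 H3K27ac regions of PER-117 and 0 and 0 of KARPAS-45, and a gene end was acetylated in PER-117 alone. RUNX2 at an end of KCNH1 was called in KARPAS-45 and not in PER-117. TACR3, the receptor of neurokinin B, held 3 with 9.78, 5.73 and 3.92, and PER-117 alone had H3K27ac in the span, with 3 regions. NFIA, a nuclear factor I protein of glial and erythroid development, held 3 with 15.01, 10.9 and 4.27, at 2.77 to 57.4 kb from PER-117 H3K27ac and no nearer than 480 kb to that of KARPAS-45. Its span had 8 H3K27ac regions in PER-117 and 0 in KARPAS-45. An end of the gene carried RUNX2 and H3K27ac in PER-117 only. CUBN, the kidney and gut receptor for vitamin B12 bound to intrinsic factor, and PLB1, a phospholipase, held 3 each among 13 and 18 PER-117 H3K27ac regions, against 1 and 7 in KARPAS-45. DLG5 had 18 regions in PER-117, against 10 in KARPAS-45, and RUNX2 peaks of PER-117 alone (5). GADL1, an amino acid decarboxylase, and MKLN1, a part of a ubiquitin ligase complex, held 3 members each. MKLN1 had ends with RUNX2 and H3K27ac in both lines, as did AUTS2, and fewer H3K27ac regions in PER-117 (5) than in KARPAS-45 (7). DAB1, an adaptor of reelin signalling in neurons, held 3 with fold enrichments of 3.69 to 11.3, among 20 H3K27ac regions of PER-117 and 2 of KARPAS-45. Both lines had H3K27ac at an end of DAB1, and KARPAS-45 alone had RUNX2 at one.

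**Figure D5:**
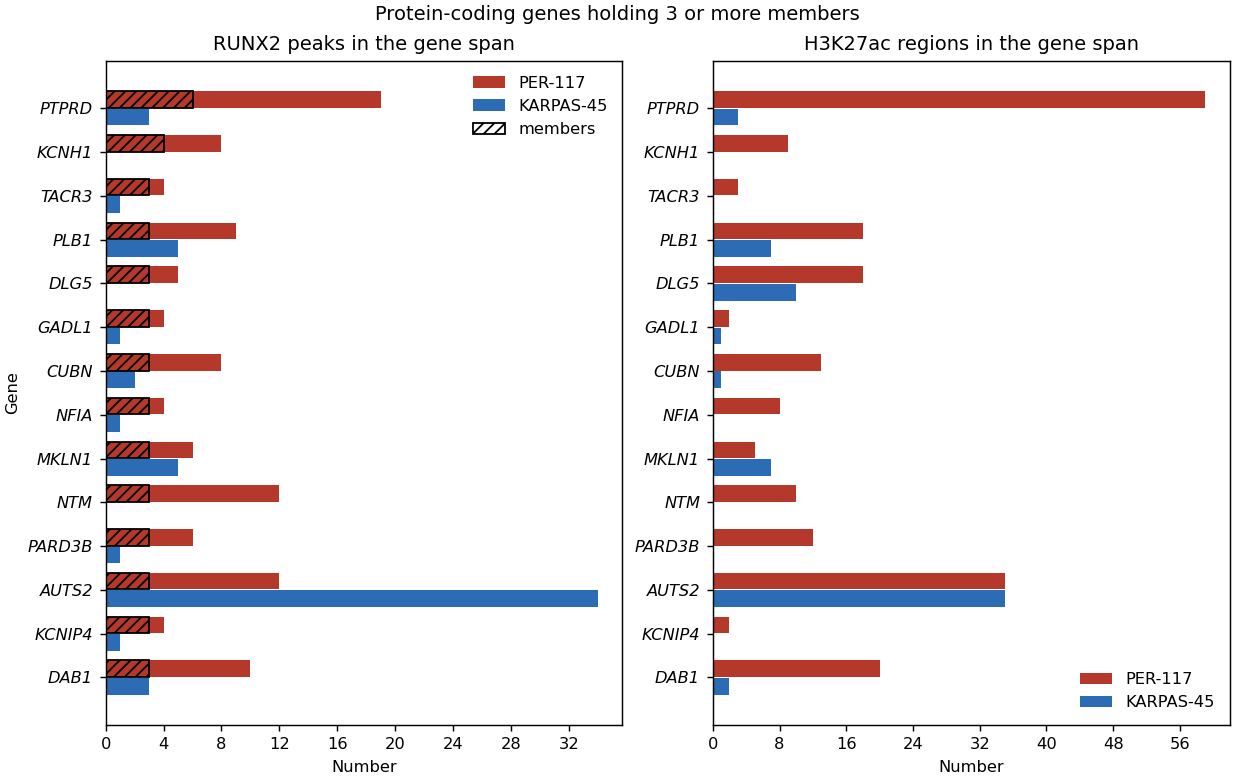
Number of RUNX2 peaks (left) and H3K27ac regions (right) in the span of the 14 genes outside chromosome 8 that hold 3 or more members, for PER-117 (red) and KARPAS-45 (blue), with the members hatched. PER-117 has more H3K27ac regions in 12 of the 14 genes, while AUTS2 has 35 in each line and MKLN1 has 5 in PER-117 against 7 in KARPAS-45.

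The 11 lists of lineage and tissue genes, 201 genes in all, were read against the 3.71% of protein-coding genes with a member and the 0.660 members per Mb of all protein-coding spans. Members were found in 0 of 28 T-lineage genes and 0 of 16 T-ALL transcription factor genes, although these held 41 and 25 PER-117 RUNX2 peaks of other kinds. These lists span 1.07 and 1.37 Mb, and at the density of all genes each would hold fewer than 1 member. No member lay in the 12 myeloid, 10 erythroid and megakaryocyte, 11 cytotoxic or 20 bone genes, whose spans are short as well. Of 17 progenitor genes 2 held members. MECOM, a zinc finger factor of blood stem cells and an oncogene of myeloid leukemia, held 2, with 12.2 and 10.5, at 18.3 and 0.080 kb from PER-117 H3K27ac and 531 and 513 kb from that of KARPAS-45. Its span had 6 RUNX2 peaks and 18 H3K27ac regions in PER-117, against 0 and 0 in KARPAS-45, and a gene end was acetylated in PER-117 only. Of 12 B-lineage genes, PAX5, the commitment factor of B cells, held 1 with 2.63.

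Long genes of neurons, fragile sites and ion transport held members more often per gene and not per Mb. Of 30 neuronal adhesion and synapse genes 9 held members (14 in all, 0.428 per Mb), of 20 long genes of common fragile sites 8 (13, 0.479 per Mb) and of 25 ion channel and transporter genes 3 (5, 0.544 per Mb), each below the 0.660 per Mb of all genes. The lists had median spans of 969, 1375 and 309 kb, and all protein-coding genes of 500 kb or more held 0.454 members per Mb. Of these lists, 19 genes outside chromosome 8 held a member. In 12 of these 19 the span held more H3K27ac regions of PER-117 than of KARPAS-45, in 3 the same number and in 4 fewer. Genes of these lists without a member were not counted in this way. NTM and OPCML, neighbouring cell adhesion genes of the IgLON family on chromosome 11, held 3 and 2. The members in OPCML had fold enrichments of 17.9 and 8.27 and those in NTM 6.07, 2.77 and 6.51. Neither gene had any RUNX2 peak or H3K27ac region of KARPAS-45 in its span, while PER-117 had 12 and 3 RUNX2 peaks and 10 and 2 H3K27ac regions. LRP1B, a lipoprotein receptor family member, and PARD3B, a polarity protein, also held members (2 and 3) with 6 and 12 H3K27ac regions of PER-117 and 0 and 0 of KARPAS-45. AUTS2, a chromatin regulator of neurons, showed another pattern, with 3 members among 35 H3K27ac regions in each line and gene ends bound and acetylated in both. The 4 with fewer regions of PER-117 were CDH4, a cadherin (1 in PER-117, against 6 in KARPAS-45), NLGN1, a synaptic adhesion protein (1 against 4), PTPRN2, a phosphatase family member of secretory vesicles (31 against 44), and FHIT, a fragile-site tumour suppressor (2 against 3). At NLGN1 a gene end was acetylated in KARPAS-45 alone. KCNIP4, a potassium channel subunit, held 3 members with fold enrichments of up to 9.10 that were 60.3 to 248 kb from PER-117 H3K27ac. CNTNAP2, DMD and MACROD2 each held 1 member far from acetylation of both lines, at 1580, 2047 and 810 kb from that of PER-117. The members in CNTNAP2, a neuronal adhesion protein, and DMD, the dystrophin gene, had fold enrichments of 5.39 and 5.06, and the member in MACROD2, a macrodomain hydrolase, had 5.06.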

How the data were processed

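ChIP libraries of RUNX2 and H3K27ac, 1 per line, were used. Per the submitters' processing notes, STAR 2.4.2a, MACS2 and the build hg38 were named, but nothing used here states their roles, parameters or control libraries. The authors deposited each peak with a −log10 q, a −log10 p, a fold enrichment given as a linear ratio, and a display score that tracks the −log10 q, and column 10 gives a summit offset in the RUNX2 lists only. Depth is unknown. Of 23043 PER-117 RUNX2 lines, 40 lay off chromosomes 1 to 22 and X. Entries with the same interval were joined, keeping the summit of highest fold enrichment. Overlap meant 1 bp or more, and positions are midpoints. Gene spans came from RefSeq GRCh38.p14, without strand or exons. The work was done in Python 3.11.15 (matplotlib 3.10.9, scipy 1.17.1, pandas 2.3.3, numpy 2.4.6). The interval code was tested on simulated data against direct counting, with 0 mismatches in 4000 queries per function.

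No test was run, as each group had 1 sample. The members and gene lists were chosen with earlier results of these data known. Genes were named by rule, as hosts or nearest gene ends of the 15 strongest members and of the members at the 1 kb limit. The rule also took the 10 genes and 5 clusters with most members (ties by shorter span). It added the 5 members farthest from and closest to H3K27ac. From each list it took up to 4 genes holding a member, by fold enrichment. Several list genes within this rule are counted and not named. Names beyond the rule, such as promoter windows, further genes with 3 members, further clusters of 4 and further list genes, were chosen after values were seen. Genes of chromosome 8 are not named, and 1 other list gene with a member is not reported here. No genome sequence was used, so motifs around all summits were not analysed here.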

Additional observations from a re-analysis of the deposited data

How the results depend on the processing

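Of 58 values recomputed under other settings, 37 stayed within the counting interval of the reported value (a factor of 1.5 for the number of members) and 21 did not. When RUNX2 calls were kept only from a −log10 q of 10 upward, there were 489 members, 48.5% were inside protein-coding genes, 6.95% had another member within 100 kb, the highest share on a chromosome was 8.26% (chromosome 8), the median fold enrichment was 8.13, and 66.9% were closer to PER-117 than to KARPAS-45 H3K27ac. With H3K27ac regions widened by 500 bp, distances being measured to the widened edge, the values were 18.6% with a neighbour, a median of 18.1 kb to PER-117 H3K27ac, 35.9% within 10 kb, 8.95% on chromosome 13 and 55.9% closer to PER-117. With the whole peak outside H3K27ac, 20.2% had a neighbour, the median was 12.8 kb, 44.7% were within 10 kb and 59.9% closer to PER-117. With H3K27ac regions of −log10 q of 2 or more, these were 26.5%, 13.5 kb, 43.7% and 66.3%. A neighbour within 10 kb was present for 7.99%, and any RefSeq gene held 65.2%. The chromosome with the highest share was 4, 8 or 13, depending on the setting. The settings for the share closer to PER-117 were added after the data were seen, and that share was above 50% in each. A gene-end distance of 2.5 kb, the summit in place of the midpoint and KARPAS-45 peaks widened by 1 kb moved no value past its interval. The cause of the shifts, including the number of members that each setting leaves, was not tested. The motif count around all summits was not run without a genome. No paired analysis was possible because there is 1 library per line and antibody and the labels give no replicate numbers. Unknown depth limits every absence of a call.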
